A study of Mus musculus with 32 samples.

Results

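The genes described here are 47 genes of the mitotic spindle, the kinetochore and the machinery of cell division, listed by name for their known roles and followed in the Ribo-Seq of neural stem cells (NSCs) treated with interferon-β (IFN-β). The list was chosen with earlier results of these data known. All 47 were found by symbol among the 23035 genes of the footprint tables. NSCs were taken from the ventricular-subventricular zone of male C57BL/6 mice of 8 to 12 weeks and grown in medium with EGF and FGF, and they received either IFN-β or vehicle (the BSA-containing buffer alone) for 2 h or 14 h before a short pulse of cycloheximide, which stops ribosomes on their mRNA. Ribosome-protected fragments (footprints) in the coding sequence (CDS) and total RNA were sequenced in 4 cultures of each of the 4 groups, which gave 32 libraries. No transgene or deletion is given for these mice, and the growth factors were common to all groups. The 4 libraries of a group are called biological replicates by the study.

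Dividing cells assemble the mitotic spindle anew in each cycle. Cyclin A2, the B-type cyclins and Cdk1 bring the cell into mitosis, Aurora and Polo-like kinases mature the spindle poles, kinesins push and pull the microtubules, and the kinetochore holds each chromosome to them while the spindle checkpoint delays anaphase until all are attached. Most of these genes are transcribed together in G2 and M phase. NSCs in culture with EGF and FGF divide, while in the adult brain most NSCs rest, so that these genes follow whether a population is cycling. By role, the list holds 10 kinesin motors, 7 kinetochore genes, 4 genes of the spindle checkpoint, 7 mitotic kinases and chromosomal passengers, 7 cyclins, Cdk1 and their regulators, 6 genes of spindle organisation and cytokinesis, and 6 genes of chromosome structure.

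The promoters of these genes share letters that are known for transcription in G2 and M phase. A cell cycle gene homology region (CHR; searched as TTTGAA or TTTAAA) is the element read by the DREAM and MuvB complexes, and the CCAAT box is bound by NF-Y. E2F sites were searched as TTTCCCGC, TTTGGCGC, TTTGCCGC and TTTCGCGC. RefSeq promoters of build GRCm38.p6, from 250 bases before to 50 bases after the gene start, were matched for 39 of the 47 genes, with no entry for Kif20a, Cdc25c, Incenp, Spc24, Aurkb, Smc4, Ccna2 and Tpx2. All motifs were searched on both strands. The first 8 stretches below are shown because they hold the CHR, most of them with CCAAT boxes before it, and the last pair because Nuf2 holds none of the motifs and Cdc25b only a CCAAT box. Each runs 5′ to 3′ on the strand of the gene, from 100 bases before the start to 30 after it, and capitals mark the motifs, which read ATTGG or TTCAAA where they lie on the other strand.
Cdk1: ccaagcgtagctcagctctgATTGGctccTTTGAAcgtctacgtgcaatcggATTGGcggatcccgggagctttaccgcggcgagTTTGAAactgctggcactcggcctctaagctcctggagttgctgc
Ccnb2: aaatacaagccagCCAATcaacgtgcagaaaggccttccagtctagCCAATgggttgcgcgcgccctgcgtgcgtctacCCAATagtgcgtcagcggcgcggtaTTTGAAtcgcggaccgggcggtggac
Hmmr: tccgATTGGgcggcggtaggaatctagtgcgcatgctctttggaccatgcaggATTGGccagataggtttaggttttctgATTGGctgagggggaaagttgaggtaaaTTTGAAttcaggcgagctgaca
Kif18b: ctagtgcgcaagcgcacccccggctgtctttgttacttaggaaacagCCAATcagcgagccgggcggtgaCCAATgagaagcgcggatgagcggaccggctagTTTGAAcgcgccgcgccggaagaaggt
Prc1: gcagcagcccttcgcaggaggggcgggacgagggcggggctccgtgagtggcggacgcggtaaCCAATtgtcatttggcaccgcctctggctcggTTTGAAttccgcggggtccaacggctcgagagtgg
Cdc20: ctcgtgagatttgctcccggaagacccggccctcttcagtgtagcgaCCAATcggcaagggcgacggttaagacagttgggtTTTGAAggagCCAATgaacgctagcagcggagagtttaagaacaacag
Kif15: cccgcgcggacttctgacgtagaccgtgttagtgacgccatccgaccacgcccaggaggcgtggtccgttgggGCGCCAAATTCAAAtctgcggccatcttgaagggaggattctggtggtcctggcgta
Top2a: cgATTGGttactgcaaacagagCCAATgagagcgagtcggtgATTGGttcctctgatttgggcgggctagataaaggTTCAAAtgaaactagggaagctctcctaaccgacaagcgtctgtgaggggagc
Nuf2: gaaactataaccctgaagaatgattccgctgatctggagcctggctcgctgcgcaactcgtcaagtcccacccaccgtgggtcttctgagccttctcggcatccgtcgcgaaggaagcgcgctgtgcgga
Cdc25b: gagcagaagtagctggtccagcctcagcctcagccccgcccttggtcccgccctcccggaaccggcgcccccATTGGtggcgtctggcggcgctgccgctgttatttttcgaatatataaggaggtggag
In the order printed, these lie at chr10:69352883-69353012 on the minus strand (Cdk1), chr9:70421525-70421654 on the minus strand (Ccnb2), chr11:40733408-40733537 on the minus strand (Hmmr), chr11:102925095-102925224 on the minus strand (Kif18b) and chr7:80294351-80294480 on the plus strand (Prc1, the first of its starts). The others lie at chr4:118437314-118437443 on the minus strand (Cdc20), chr9:122950981-122951110 on the plus strand (Kif15), chr11:99024160-99024289 on the minus strand (Top2a), chr1:169531435-169531564 on the minus strand (Nuf2) and chr2:131186848-131186977 on the plus strand (Cdc25b).

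TTTGAA was found in the promoters of 29 of 39 members (74.4%), against 20.2% of the 27025 genes with a promoter entry and 13.6% of those whose footprints were tested at 14 h. Within 50 bases of the start on either side, 27 of 39 members (69.2%) held it, against 5.72% of all genes with an entry. Either form of the CHR was in 32 members (82.1%), against 30.6% of all genes. A CCAAT box was in 28 members (71.8%), against 41.1% of all genes, 43.6% of those tested and 56.7% of the 127 other mitotic genes with an entry, and 24 members (61.5%) held both TTTGAA and CCAAT, against 7.97%. E2F sites were in 4 members (10.3%, exact 95% binomial interval 2.87% to 24.2%), against 2.6% of all genes, 4.9% of those tested and 13.4% of the other mitotic genes, of which the interval holds the latter pair, and in Kif15 such a site directly precedes the CHR without overlap. In Ccnb2, which encodes a partner of Cdk1, 3 CCAAT boxes begin at -87, -54 and -21 and the CHR at 5, counted from the gene start. No motif of the set was in the windows of Nuf2, Mad2l1, Nusap1 and Ncaph, and neither CHR form in those of Kif18a, Bub1 and Cdc25b. These are matches of letters in a reference and no binding was measured. Where the CHR lies after the start, it is missed when only the bases before the start are searched, and TTTGAA was then found in 33.3% of the members and 18.3% of all genes.

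**Figure D1:**
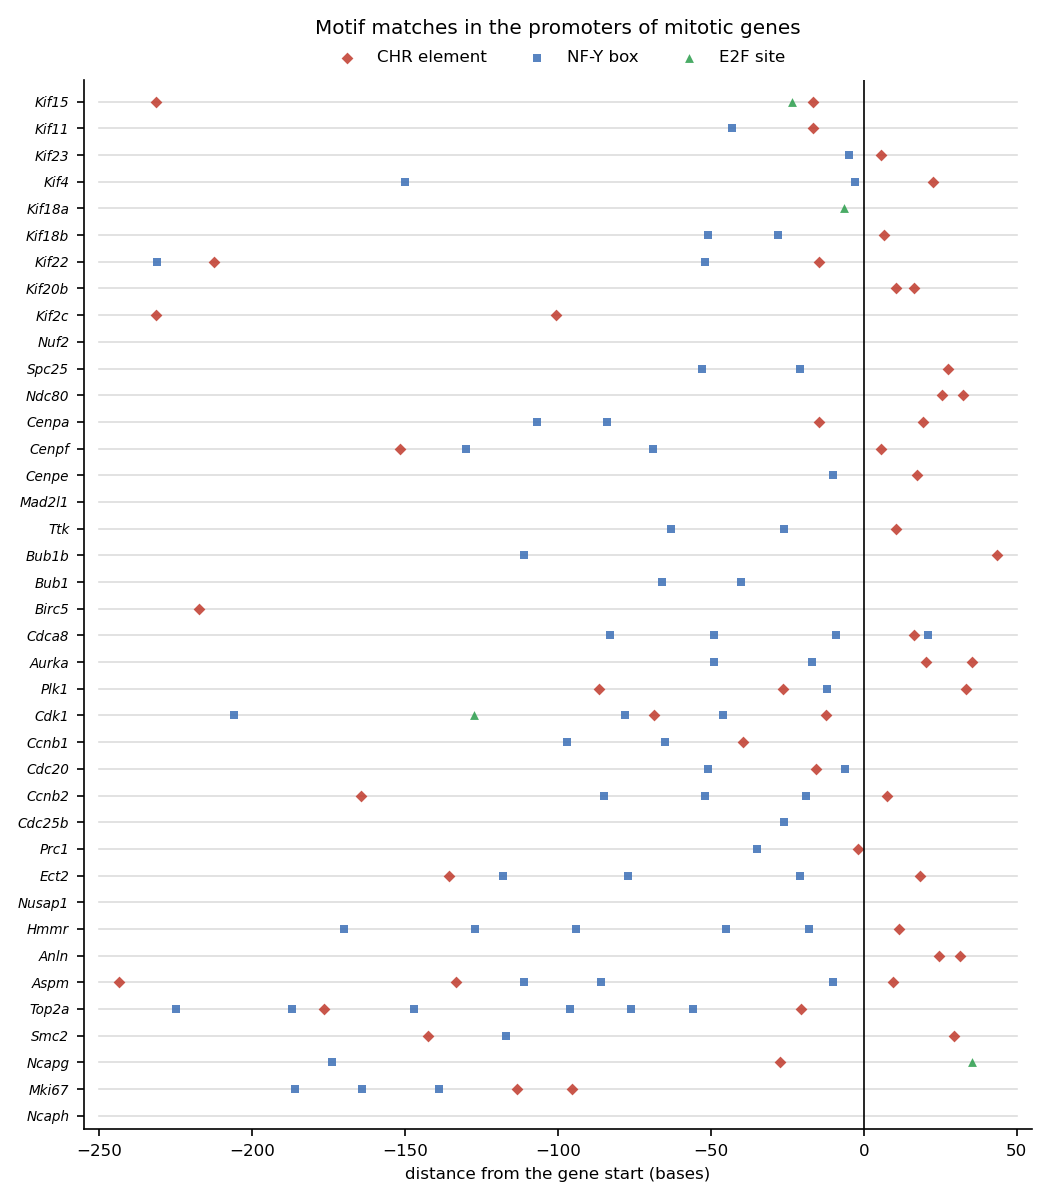
Positions of CHR elements (diamonds), NF-Y boxes (squares; the CCAAT box) and E2F sites (triangles) in the promoters of the 39 members with an entry, as the distance in bases from the gene start (black line); genes are ordered by role and then by their fold change at 14 h. The CHR elements gather near the start, with TTTGAA within 50 bases of it in 27 members, and the NF-Y boxes mostly lie before them.

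Footprint libraries held 4956144 to 9361609 counts at 2 h and 2956297 to 10505108 at 14 h. Neural stem cell markers were abundant in every group (their summed level was 10850 to 18040 CPM, which is counts scaled to a common library size), while those of neuroblasts summed to 60.16 to 143.8 CPM, of microglia to 3.81 to 27.83 CPM, with Cx3cr1 and Aif1 at 0 in every group, and of endothelial cells to 10.7 to 40.88 CPM. Markers of the oligodendrocyte lineage summed to 1142 to 2069 CPM and those of astrocytes to 426.2 to 1452 CPM. At 14 h, the stem cell markers Prom1, Fabp7 and Slc1a3 fell and Hes1 rose, and the microglial sum went from 6.98 to 9.69 CPM with vehicle to 22.8 to 27.8 CPM with IFN-β, mostly through P2ry12. At 2 h, the oligodendrocyte lineage sum was 1612 to 1974 CPM with vehicle and 1142 to 1441 CPM with IFN-β, where Olig1 fell, and the neuroblast sum was 90.8 to 115.7 CPM and 117.3 to 143.8 CPM, both without overlap. The part of these shifts in the results below was not tested. All 8 genes of an interferon response check rose at 14 h, and 7 of the 7 tested did at 2 h. Values per library are CPM after TMM scaling, which corrects for differences in composition, set within each exposure, and tests are edgeR's quasi-likelihood tests over all genes with Benjamini-Hochberg adjustment, called at an adjusted p under 0.05. Falls and rises are thus relative to the other genes of the same exposure. In polysome profiles, the study saw slightly more mRNA with many ribosomes after 2 h and much less after 14 h. Such a change of all translation does not show in these values.

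After 14 h of IFN-β, footprints fell on all 47 genes. The share of all footprints that lay on these genes was 0.679%, 0.656%, 0.702% and 0.619% in the 4 vehicle libraries and 0.264%, 0.261%, 0.302% and 0.276% in the IFN-β libraries. Vehicle and IFN-β libraries did not overlap in this share. The median log2 fold change over the 47 genes was -1.18, against 0.00 over the 12113 genes tested, of which 26.3% were called lower and 26.2% higher. For all 47 genes, each IFN-β library lay below each vehicle library in CPM, as it did for 23.7% of the genes tested. Of the 47, 42 were among the lowest 5% of log2 fold changes, and Cdc25b stood apart, with 14.1% of genes below it. A gene lies on the opposite strand of 20 of the 47, in 6 of them with exons that meet the CDS. The cultures were lysed whole, so fewer cells in G2 and M phase and fewer ribosomes on these mRNAs in each such cell cannot be told apart. Nor can a smaller amount of these mRNAs be told from fewer ribosomes on each of them, since total RNA hardly measured these genes (below).

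**Figure D2:**
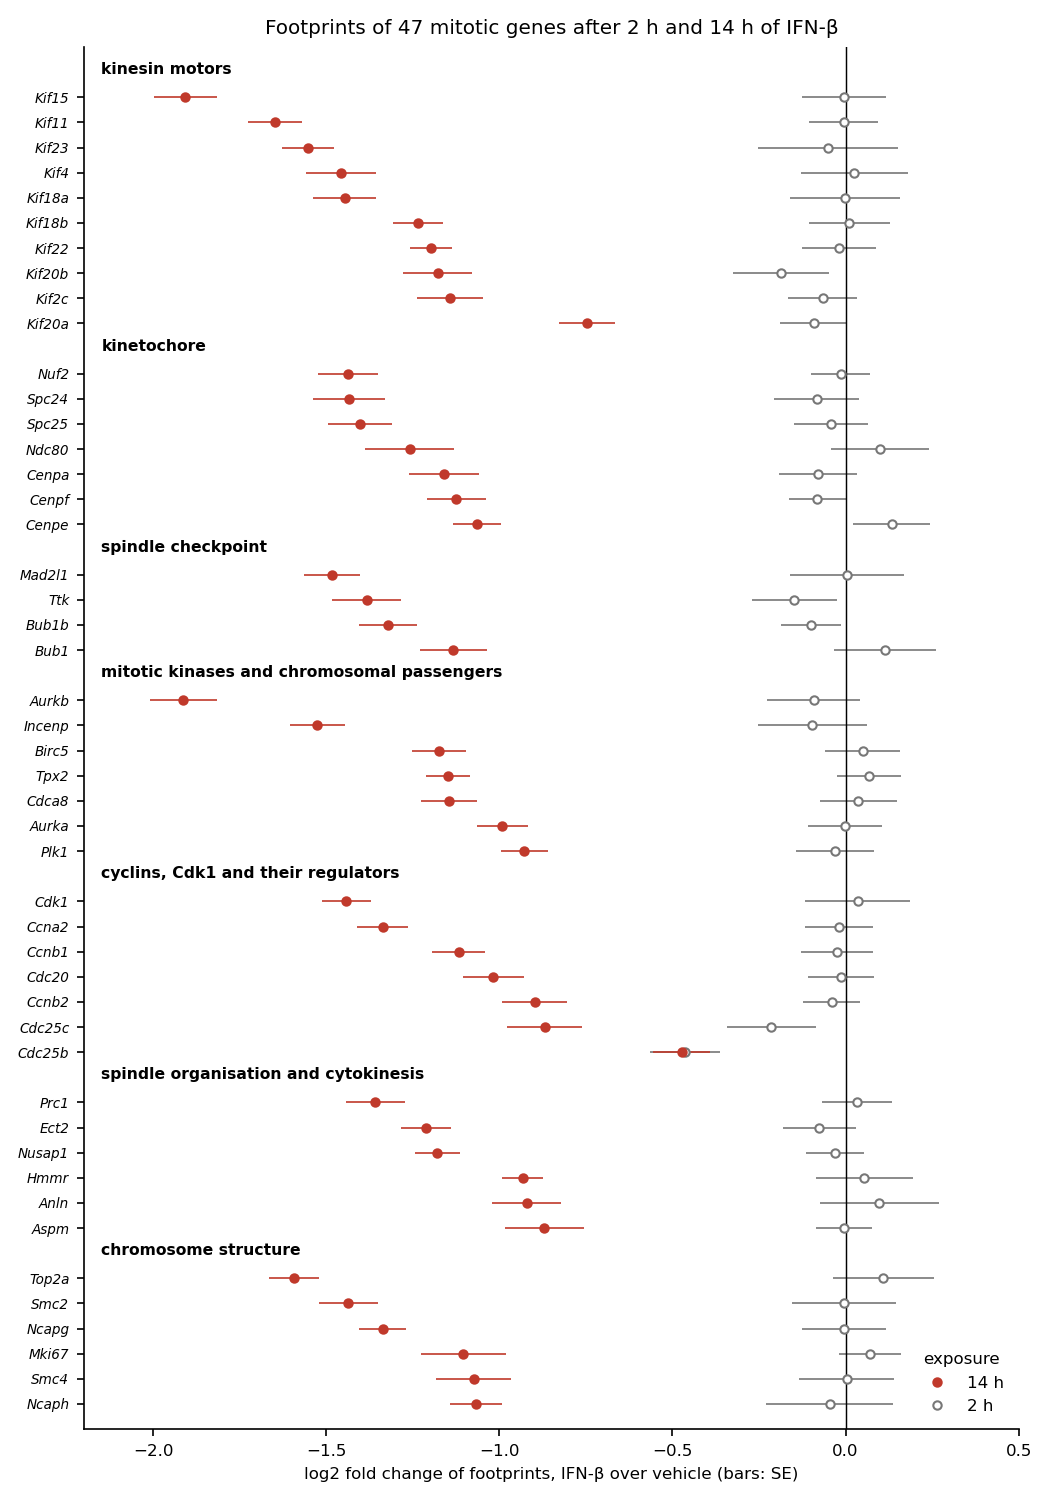
Log2 fold change of footprints, IFN-β over vehicle, of the 47 genes grouped by role after 2 h (open circles) and 14 h (filled circles), with bars for the standard error from the fit over 4 against 4 libraries. At 14 h every gene lies left of 0, between -1.91 and -0.47, and at 2 h all but Cdc25b lie between -0.21 and 0.13.

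Kinesin motors all fell at 14 h, 10 of 10, with a median log2 fold change of -1.34. Kif15, which can stand in for Kif11 in keeping the spindle bipolar, was read at 90.2, 92.1, 107 and 84.9 CPM with vehicle and at 23.1, 22.1, 27.0 and 26.5 CPM with IFN-β. It was thus lower by -1.91 ± 0.09 on the log2 scale (SE, n = 4 against 4; adjusted p = 1.81e-09). Kif11, the motor that drives the spindle poles apart, came next in this role, at 234, 243, 255 and 209 CPM against 65.6, 73.3, 82.5 and 76.3 CPM (-1.65 ± 0.08). Kif23, a subunit of centralspindlin in cytokinesis, Kif4, which acts on chromosome arms and the spindle midzone, and Kif18a, which aligns chromosomes, fell by 1.55, 1.46 and 1.45 on the log2 scale. Kif20a, which carries the chromosomal passengers to the midzone, changed least among the kinesins. It went from 185, 206, 195 and 186 CPM to 96.4, 108, 122 and 129 CPM, a log2 fold change of -0.75 ± 0.08 (adjusted p = 5.69e-06).

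Kinetochore genes fell as well, 7 of 7, in a narrow range between -1.44 and -1.06. Nuf2, a subunit of the Ndc80 complex that grips microtubules, had 85.5, 75.9, 79.5 and 68.1 CPM with vehicle and 24.4, 29.3, 31.4 and 27.1 CPM with IFN-β (-1.44 ± 0.09). Its partners Spc24, Spc25 and Ndc80 had log2 fold changes of -1.43, -1.40 and -1.26. Relative to the mean of the 4 subunits in the same library, no subunit of this complex separated vehicle from IFN-β libraries at 14 h, and the mean shifts were between -0.05 and 0.07 on the log2 scale. Cenpe, a kinetochore motor that brings chromosomes to the spindle equator, showed the smallest change of the role, from 174, 162, 185 and 165 CPM to 87.3, 73.3, 88.2 and 80.8 CPM (-1.06 ± 0.07). Cenpa, the histone H3 variant that marks the centromere, fell by 1.16.

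Of the spindle checkpoint, 4 of 4 genes fell, with a median of -1.35. Mad2l1 encodes Mad2, the protein that holds Cdc20 back until chromosomes are attached. It was read at 82.9, 92.2, 91.3 and 81.6 CPM with vehicle and at 27.4, 33.6, 34.1 and 28.4 CPM with IFN-β (-1.48 ± 0.08). Ttk, the kinase that starts the checkpoint, and Bub1b, which encodes BubR1, fell by 1.38 and 1.32. Bub1, a kinase at the outer kinetochore, had 54.8, 47.2, 55.8 and 47.3 CPM against 21.4, 20.2, 26.4 and 24.2 CPM (-1.13 ± 0.10).

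Among the mitotic kinases and chromosomal passengers, 7 of 7 fell and the members differed more. Aurkb, the kinase of the chromosomal passenger complex, went from 77.4, 76.6, 83.7 and 79.6 CPM to 15.7, 18.8, 22.8 and 24.2 CPM. This was the lowest log2 fold change of the 47 genes, -1.91 ± 0.10 (adjusted p = 2.9e-09), next to that of Kif15. The other subunits of its complex fell too, Incenp, the scaffold, by 1.53, Birc5, which encodes survivin, by 1.18, and Cdca8, which encodes borealin, by 1.15. Relative to the mean of the 4 subunits in each library, Aurkb lay between -0.26 and -0.16 with vehicle and between -0.87 and -0.60 with IFN-β at 14 h. Cdca8 and Birc5 were higher relative to that mean in every IFN-β library than in every vehicle library, by 0.31 and 0.27 on average. At 2 h these relative levels overlapped between the groups for all 4 subunits. Such ratios within a complex were not tested. Tpx2, which activates Aurora A at the spindle, fell by 1.15 and Aurka itself by 0.99. Plk1, a kinase with roles from mitotic entry to cytokinesis, fell least in this role, from 171, 193, 200.4 and 190.5 CPM to 88.7, 97.5, 105 and 104 CPM (-0.93 ± 0.07).

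The 7 cyclins, Cdk1 and their regulators held both steep and shallow changes. Cdk1, the kinase that drives mitosis, was read at 303, 321, 339 and 320.3 CPM with vehicle and at 101, 115, 129 and 125 CPM with IFN-β (-1.44 ± 0.07). Ccna2, the cyclin of S phase and G2, fell by 1.34, Ccnb1, the main mitotic cyclin, by 1.12, and Ccnb2 by 0.90. Relative to the mean of these 4 genes in each library, Cdk1 and Ccna2 were lower with IFN-β at 14 h in every library, by 0.24 and 0.13 on average, and Ccnb2 was higher by 0.29, with no overlap of the groups. Cdc20, the activator of the anaphase-promoting complex, fell by 1.02. Of the phosphatases that activate Cdk1, Cdc25c went from 20.2, 20.8, 25.2 and 21.6 CPM to 10.0, 11.6, 12.3 and 13.1 CPM (-0.87 ± 0.11). Cdc25b had 34.5, 30.3, 30.5 and 28.2 CPM against 22.8, 22.2, 22.5 and 21.2 CPM. Its change, -0.47 ± 0.08 (adjusted p = 0.00038), was the smallest of all 47 genes.

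In spindle organisation and cytokinesis, 6 of 6 genes fell, with a median of -1.06. Prc1, which bundles the microtubules of the midzone, led with 191, 204, 229 and 208 CPM against 69.6, 74.6, 93.3 and 84.6 CPM (-1.36 ± 0.09). Ect2, the exchange factor that starts the cleavage furrow, and Nusap1, a microtubule-binding protein, fell by 1.21 and 1.18. Hmmr and Anln (anillin, a scaffold of the contractile ring) fell by 0.93 and 0.92. Aspm, a spindle pole protein required for brain size, went from 147, 129, 131 and 104 CPM to 73.3, 65.8, 82.4 and 58.6 CPM (-0.87 ± 0.11), and its vehicle libraries varied more than those of Prc1.

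Chromosome structure genes fell in 6 of 6 cases. Top2a, the topoisomerase that separates sister DNA, had more footprints than any other member, 862, 814, 886 and 781 CPM with vehicle and 254, 258, 313 and 281 CPM with IFN-β (-1.59 ± 0.07). Of condensin, which compacts chromosomes, Smc2 and Ncapg fell by 1.44 and 1.34, and Smc4 and Ncaph by 1.07 each. Relative to their mean in each library, Smc2 was lower with IFN-β without overlap, by 0.21 on average, while Smc4, Ncapg and Ncaph overlapped between the groups. Ncaph was read at 140.3, 146, 159 and 145 CPM against 57.9, 70.9, 76.2 and 73.5 CPM. Mki67, whose protein Ki-67 coats mitotic chromosomes and is used to mark cycling cells, fell by 1.10. All 47 calls at 14 h held with each other normalization, filter and tool tried and without each library, and the largest adjusted p among them was 0.00221, for Cdc25b.

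**Figure D3:**
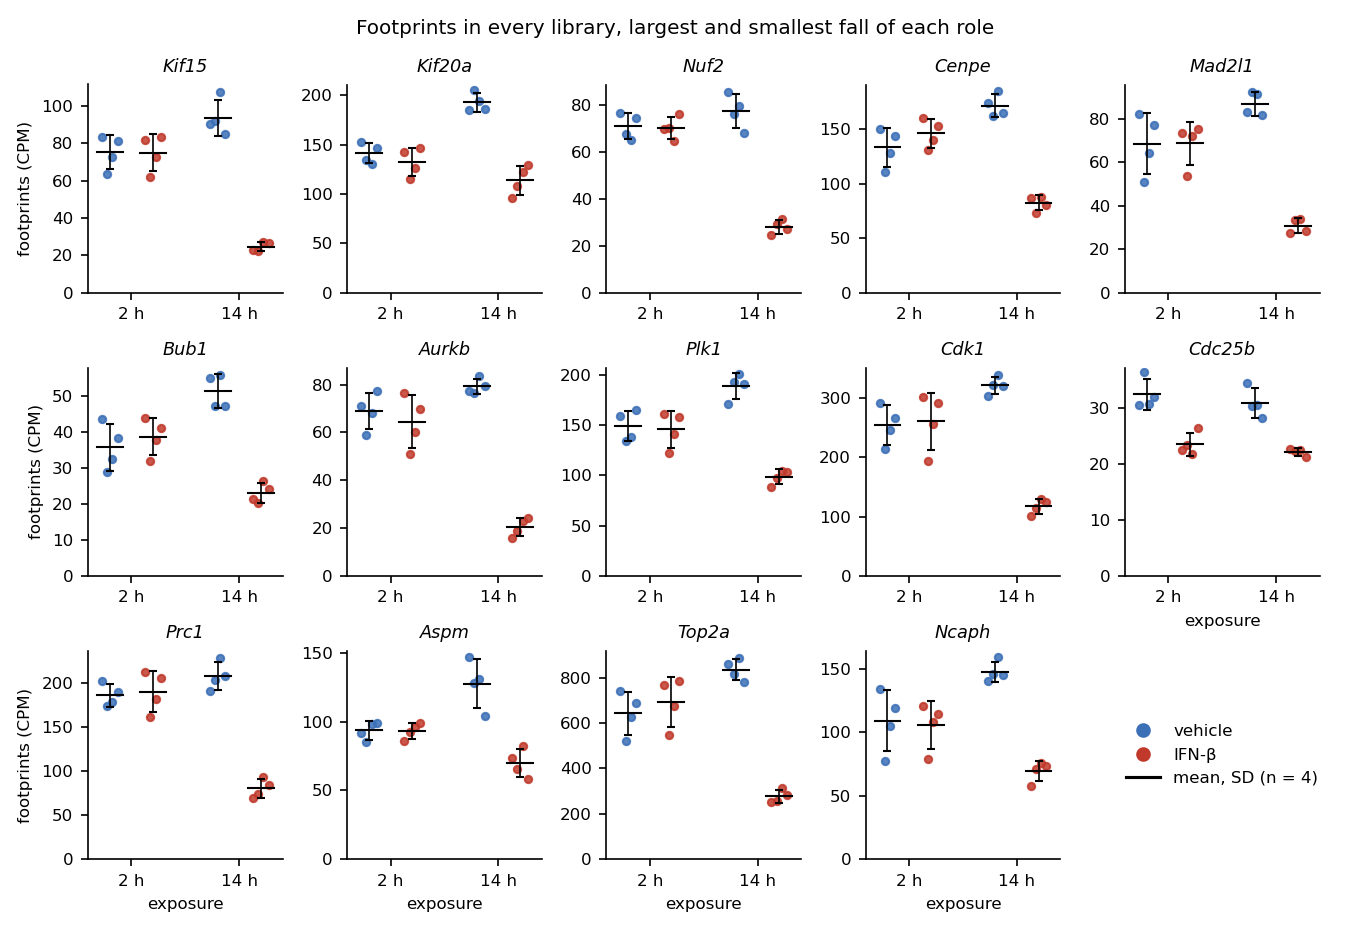
Footprints in CPM (scaled within each exposure) in every library of the member with the largest and of the member with the smallest change at 14 h in each role, with vehicle in blue and IFN-β in red; lines and bars give the mean and SD over 4 libraries. At 14 h the groups are apart in all 14 genes, and at 2 h in Cdc25b alone, where the share of all genes that are apart was not counted.

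At 2 h, 1 of the 47 genes was called in the fit by treatment alone. With the replicate number as a block, given below, 2 were called higher and 1 lower, while 29.2% of all genes were called. The share of all footprints on the 47 genes was 0.604%, 0.474%, 0.524% and 0.581% in the vehicle libraries with replicate numbers 2, 3, 5 and 6 and 0.569%, 0.457%, 0.519% and 0.577% in the IFN-β libraries with the same numbers. Libraries with number 3 were the lowest in both groups, and the groups overlapped. Within each pair of the same number, the IFN-β library had the lower share, which was not tested. The median log2 fold change over the members was -0.01, against -0.02 over the 12104 genes tested. By treatment alone, 2.01% of the genes tested were called lower and 5.25% higher. Cdc25b was the 1 member called of 47 in this fit, and it was lower. It had 30.5, 36.4, 30.7 and 32.0 CPM with vehicle and 22.4, 23.5, 21.7 and 26.4 CPM with IFN-β, and it was the single member without overlap between the groups. How many of all genes tested were without overlap at 2 h was not counted, so this is no added support for the call. The log2 fold change of Cdc25b was -0.46 ± 0.10 (adjusted p = 0.0234), and the call was lost at -0.44 without replicate 2 of IFN-β, at -0.43 without replicate 5 of IFN-β and at -0.47 without replicate 6 of vehicle.

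The next lowest members at 2 h were Cdc25c, with 20.7, 18.9, 15.6 and 20.1 CPM against 15.7, 16.2, 14.5 and 18.7 CPM (-0.21 ± 0.13, adjusted p = 0.48), and Kif20b, a kinesin of late mitosis, with -0.19 ± 0.14. The highest were Cenpe (0.13 ± 0.11), Bub1 (0.11 ± 0.15) and Top2a (0.11 ± 0.15), none of which was called. These values moved with single libraries, Cenpe from 0.05 without vehicle replicate 3 to 0.20 without vehicle replicate 2, Bub1 from 0.02 to 0.23 without the same libraries, Top2a from 0.02 without vehicle replicate 3 to 0.21 without IFN-β replicate 3, and Kif20b from -0.29 without vehicle replicate 3 to -0.09 without vehicle replicate 2, with no change of sign. With the replicate number as a block, which compares IFN-β with vehicle within pairs, 29.2% of all genes were called in either direction, and 3 of the 47 members were. Cdc25b was lower (adjusted p = 0.000144), and Cenpe (0.13, adjusted p = 0.0464) and Top2a (0.11, adjusted p = 0.0422) were higher. For Cenpe the pairs with numbers 2, 3, 5 and 6 went from 150.3 to 161, from 111 to 131, from 129 to 140.2 and from 143 to 153 CPM.

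**Figure D4:**
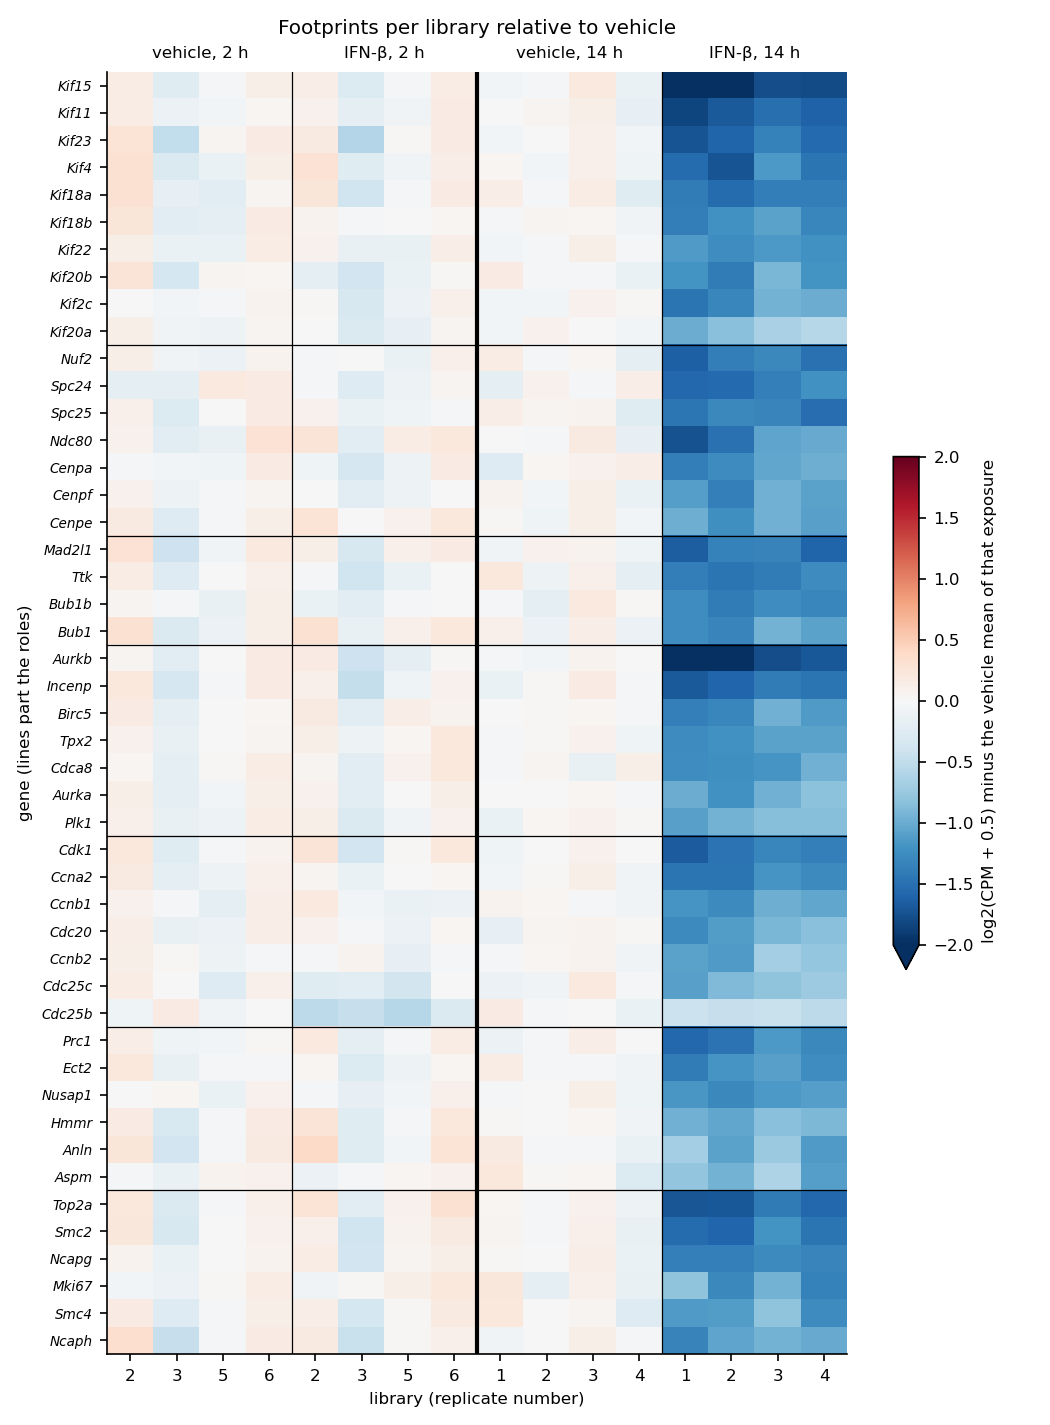
Footprints of the 47 genes (rows, lines part the roles) in the 16 footprint libraries (columns, replicate number), as log2 of CPM plus 0.5 minus the mean of the 4 vehicle libraries of the same exposure. In the 4 IFN-β libraries of 14 h all 47 genes lie below the vehicle mean, while at 2 h the libraries with number 3 are pale blue in both groups and Cdc25b is blue in the IFN-β libraries.

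The response was tested between the exposures, as the log2 fold change at 14 h minus that at 2 h in a fit of all 16 footprint libraries. The members changed more at 14 h in 46 of 47 cases, with a median difference of -1.21, while 15.5% of the 12508 genes tested were called lower in this comparison. The differences were the largest for Kif15 (-1.90 ± 0.16, adjusted p = 5.96e-07) and Aurkb (-1.83 ± 0.18, adjusted p = 2.44e-06). Kif20a (-0.65 ± 0.13, adjusted p = 0.0016) and Cdc25c (-0.65 ± 0.17, adjusted p = 0.0083) were called with smaller differences. Cdc25b was not called (-0.0008 ± 0.12, adjusted p = 0.999), its IFN-β libraries being at 72.5% of vehicle at 2 h and 72.0% at 14 h, each relative to the other genes of that exposure.

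Per length of CDS, the members were among the better read genes. With vehicle at 14 h, their median was 52.5 CPM per kilobase of CDS, against 21.2 for the 11813 tested genes with a CDS length, and 42 of 47 lay above the latter. Cdk1 stood first, at 360.3 ± 16.4 CPM per kilobase (SD, n = 4), clear of Ccna2 at 201 ± 12.4. Birc5 (183 ± 4.67) and Top2a (182 ± 10.3) followed and did not differ beyond their spread, while Mad2l1 was at 141.5 ± 8.98. The lowest were Cdc25c (15.7 ± 1.60), Aspm (13.6 ± 1.89) and Kif20b (11.4 ± 1.00). Levels per length with IFN-β at 14 h went from 132 ± 14.1 for Cdk1 to 5.00 ± 0.71 for Kif20b, with Kif15 at 5.60 ± 0.56. Top2a, first by CPM, has a CDS of 4584 bases and Cdk1 one of 891 bases.

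The other genes of mitosis were followed in 6 lists, chosen with earlier results of these data known. They held 149 genes in all, every one of which was tested. At 14 h 115 of them were called lower and 5 higher, with a median of -0.74, while 26.3% of all genes tested were lower and 26.2% higher. Other kinetochore and checkpoint genes were lower in 36 of 40 cases, with a median of -1.18, led by Cenpu (-1.86 ± 0.19), Cenpk (-1.78 ± 0.16) and Cenph (-1.78 ± 0.17), all of the constitutive centromere network. Other spindle and cytokinesis genes were lower in 31 of 36 cases and higher in 1, Ndel1 (0.48 ± 0.07), a dynein regulator. In the other condensin and cohesin subunits, 12 of 15 were lower and 1, the cohesin loader Mau2, was higher (0.33 ± 0.06). Here the condensin II subunit Ncapg2 (-1.85 ± 0.08) and Cdca5, which encodes sororin (-1.72 ± 0.10), led, and the cohesin core subunits Smc3 and Smc1a fell by 0.47 and 0.54.

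The anaphase-promoting complex moved less, with 8 of 17 genes lower, 1 higher and a median of -0.20. Its ubiquitin-conjugating enzyme Ube2c fell by 1.28, while the subunit Anapc2 was higher (0.25 ± 0.07). Among other mitotic kinases, phosphatases and cyclins, 17 of 25 were lower and 2 higher, Pttg1 and Nek7 (0.25). Fbxo5, which encodes the inhibitor Emi1 of the anaphase-promoting complex, fell by 2.23 ± 0.14, and Pkmyt1, an inhibitory kinase of Cdk1, by 1.85 ± 0.17. Pttg1, which encodes securin, the inhibitor of separase, went the other way. It was read at 43.7, 43.2, 49.0 and 47.8 CPM with vehicle and at 138, 149, 150.5 and 153 CPM with IFN-β at 14 h, a log2 fold change of 1.69 ± 0.06 (adjusted p = 9.5e-11). At 2 h Pttg1 had 45.2, 44.1, 42.4 and 46.7 CPM against 52.9, 62.3, 50.7 and 49.8 CPM, all IFN-β libraries above all vehicle libraries (0.27, adjusted p = 0.13). Separase itself, Espl1, fell by 1.21 at 14 h.

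Of the transcription factors of mitotic genes, 11 of 16 were lower at 14 h and none was higher. Mybl2, which encodes B-Myb, the partner of MuvB at the CHR, fell by 2.48 ± 0.14 on the log2 scale, more than any of the 47 members, and Foxm1, which joins it in G2, by 1.09 ± 0.09. Rbl1, which encodes p107, fell by 1.15 ± 0.09. The MuvB subunits Lin9 and Lin54 fell by 0.81 and 0.59, and the NF-Y subunits Nfya and Nfyb by 0.49 and 0.41. E2f4 (-0.11 ± 0.08) and Rbl2 (-0.11 ± 0.07), parts of DREAM in resting cells, were not called. At 2 h 1 gene of the 149 was called higher, Nek6 (0.50 ± 0.12), and 1 lower, Tfdp2 (-0.79 ± 0.16). TTTGAA was in 34.6% of the promoters of the 127 listed genes with an entry. Within the 47 members, the 29 with TTTGAA had a median log2 fold change of -1.21 at 14 h and the 10 without it one of -1.15, with no test of this difference.

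**Figure D5:**
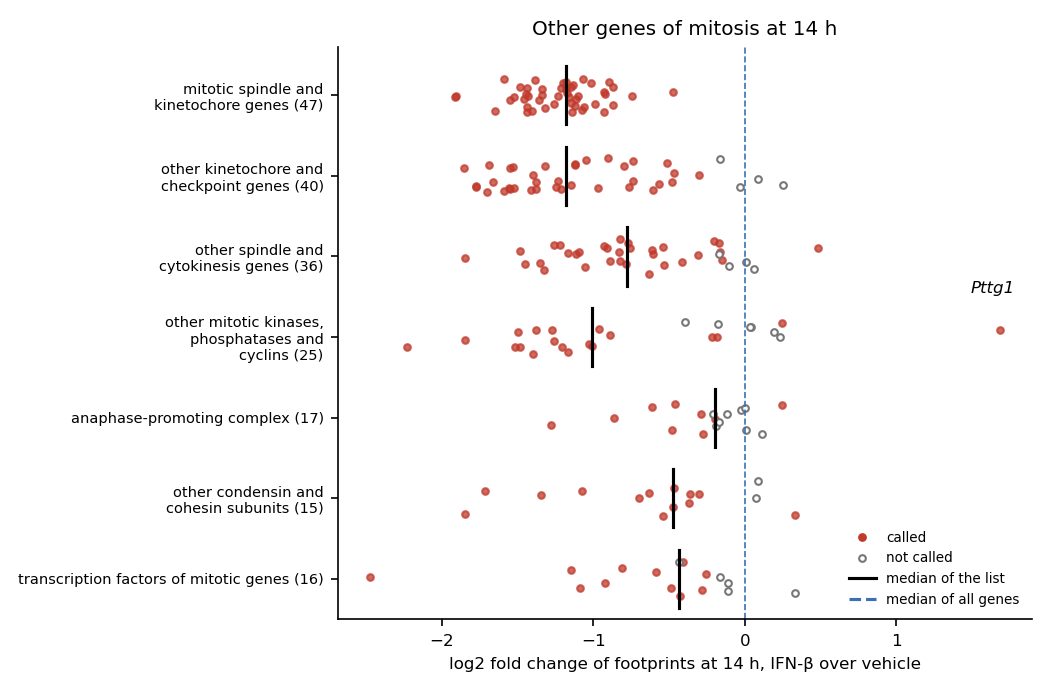
Log2 fold change of footprints at 14 h, IFN-β over vehicle, for the 47 members and 6 other lists of mitotic genes (number of genes in brackets), with called genes filled, the median of each list in black and that of all tested genes as a dashed line at 0.00. Pttg1 lies alone at 1.69, and the anaphase-promoting complex has the median nearest to that of all genes, -0.20.

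Total RNA of the same cultures hardly measured these genes. Protein-coding genes with no gene on the opposite strand held 58.1% of the footprint counts of the vehicle libraries at 14 h and 5.79% of the total RNA counts, and those with one 39.1% and 57.0%. Top2a had 4700 to 8142 footprint counts and 2 to 13 total RNA counts per vehicle library at 14 h, and Cdk1 0 to 3. The libraries were made with a directional kit and the strand setting of the counting was not given in the sources used here. Of the total RNA counts on the 47 genes at 14 h, 85.3% lay on 8 of them, 7 of which have a gene on the opposite strand, led by Kif11 and Kif20a (opposite Cdc23). Changes of total RNA on a member are therefore not read as changes of its mRNA, and those of translational efficiency (TE, footprints relative to total RNA) not as changes of its translation.

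With this limit, 31 members could be tested in total RNA at 2 h and 16 at 14 h, and none was called by edgeR or DESeq2, while 0.799% and 6.3% of all genes tested were called. At an unadjusted p under 0.05 there were 2 at 2 h (Kif4 and Kif22, both lower) and 0 at 14 h. In TE at 14 h, tested as the change in footprints beyond that in total RNA and called at an adjusted p under 0.1, 14 of 47 members were lower and none was higher, while 3.96% of the 13447 genes tested were called lower. Kif11 (-2.04 ± 0.23), Kif15 (-2.24 ± 0.28), Kif4 (-1.74 ± 0.24), Top2a (-2.17 ± 0.33), Ccna2 (-1.68 ± 0.26) and Kif22 (-1.24 ± 0.21) had the smallest p-values. At 2 h no member was called in TE, while 115 of the 14115 genes tested were. Of the members, 4 had an unadjusted p under 0.05 with edgeR and 5 with DESeq2. The share of all genes with such an unadjusted p was not counted, neither in TE nor in total RNA.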

How the data were processed

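After trimming (TrimGalore), the authors aligned reads by bowtie against ENSEMBL transcripts for mm10. They left out duplicates, and SummarizeOverlaps ("Union" mode) gave the counts of each gene. The submitters' processing notes name Trim Galore 0.4.4, Bowtie 0.12.7 and the builds mm10 and GRCm38. The deposited values are raw counts per gene, footprints in the CDS and total RNA over the gene. Of the per-sample columns 0 were left unused.

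Symbols, positions and CDS lengths (the union of coding exons) came from GENCODE M21. The members and lists were chosen with earlier results of these data known. A gene entered a test when 4 or more libraries had 10 or more counts, in R 4.3.3 with edgeR 4.0.16 (TMM, quasi-likelihood, two-sided, treatment only). Figures used matplotlib 3.10.9. The edgeR fits were tried on simulated counts with known changes. DESeq2 1.42.0, the replicate block, total counts alone, other filters and leaving out each library were the alternatives. Genes named with values per library are, in each role, those with the largest and the smallest change at 14 h, those called or at the extremes at 2 h, and the leading called genes of each list; values per library for Kif11 and Cdc25c, and the named transcription factors, cohesin genes and Espl1, were added after their values were seen. A translational efficiency fit used 16 libraries of 1 exposure.

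Footprint libraries of the same number deviated together from their group means within each exposure. The correlation was 0.297 to 0.795 at 2 h and 0.174 to 0.387 at 14 h. Every footprint library correlated best with its own number, while for total RNA they did not all do so. The main tests, by treatment only, did not use these pairs, and the replicate block, an alternative, did.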

Additional observations from a re-analysis of the deposited data

Results flagged for a closer look

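Mad2l1 had 53.8 CPM of footprints in IFN-β replicate 3 at 2 h, apart from the other 3 IFN-β libraries, the nearest of which had 72.1 CPM. It was the 1 such case among 64 groups of 4 libraries (16 genes in 4 groups each), where chance gives about 1 in 20. In the vehicle library with the same number Mad2l1 was also the lowest of its group, at 50.7 CPM.

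The response differed between the exposures in 46 of the 47 members, by the interaction of time and treatment. For the members with the largest and smallest change in each role, the log2 fold change at 14 h minus that at 2 h was -1.90 for Kif15, -0.65 for Kif20a, -1.42 for Nuf2, -1.18 for Cenpe, -1.48 for Mad2l1 and -1.25 for Bub1. It was -1.83 for Aurkb, -0.89 for Plk1, -1.47 for Cdk1, -1.39 for Prc1, -0.85 for Aspm, -1.69 for Top2a and -1.02 for Ncaph.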

How the results depend on the processing

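The 47 calls at 14 h and the 46 in the difference between exposures held under all alternatives run, with medians over the members of -1.25 to -1.13 and of -1.25 to -1.15 without 1 library. At 2 h, members called lower were 0 to 1 without 1 library and members called higher 2 with the replicate block. Genes called at 2 h were 878, 3538 with the block and 517 to 953 without 1 library (563, 517 and 575 without IFN-β replicates 2, 5 and 6), and in the difference between exposures 3867, 6944 and 3229 to 4929. The difference for Cdc25b changed sign around 0, to 0.00879 with the block, 0.0105 with DESeq2, 0.0191 with total counts alone, 0.0182 with a mean of at least 50 counts and -0.0566 to 0.0602 without 1 library. Genes called in total RNA at 2 h (93) were 169 with DESeq2, 174 with no filter, 44 with a mean of at least 50 counts and 30 to 74 without 1 library (30, 33 and 40 without IFN-β replicates 2, 5 and 6, 57 without vehicle replicate 5), and at 14 h (474) 269 with total counts alone, 247 with a mean of at least 50 and 171 to 450 without 1 library (171, 213, 271 and 265 without IFN-β replicates 1 to 4). In translational efficiency at 2 h (115) they were 250 with the Wald test, 259 with the likelihood ratio test, 51 with total counts alone, 27 with a mean of at least 50 and 70 to 149 without 1 library (70 without IFN-β replicate 5, 73 without vehicle replicate 5). At 14 h (1136) they were 380 with a mean of at least 50 counts, where 3 members were tested and 3 called. Before the gene start only, TTTGAA was in 33.3% of members, either CHR in 48.7% and TTTGAA with CCAAT in 28.2%, since those after the start are left out. Where not named, causes were not tested. The block changed no other call of a member in footprints. Low total RNA counts on the members limit translational efficiency.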
